A study of Mus musculus with 6 samples.

Results

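The genes of the major histocompatibility complex (MHC) and of antigen presentation were represented by 64 of the 12422 probe sets of the mouse array. A probe set was a member when any of its gene symbols in the platform annotation began with H2- or was B2m, Tap1, Tap2, Tapbp, Cd74, Ciita, Cd1d1, Ctss or Ctse. The rule took 46 distinct gene symbols of the 8949 on the array. Of the 64 probe sets, 52 carried 1 symbol and 12 carried several, and 55 belonged to genes that RefSeq places on chromosome 17, where the mouse MHC lies. By role, 34 probe sets belonged to class I heavy chains and their relatives (6 for the classical chains H2-K1 and H2-D1, 18 for single nonclassical genes or pseudogenes, 10 shared by several genes) and 7 to class I assembly. A further 14 belonged to class II (6 for chains, 8 for peptide loading), 1 to the class II regulator Ciita, 2 to CD1, 4 to the endosomal proteases Ctss and Ctse, and 2 to H2-Ke6, an enzyme gene of the region that the rule took by its name.

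MHC class I molecules present peptides made in the cytosol to CD8 T cells. Each consists of a heavy chain and beta-2 microglobulin, and is loaded in the endoplasmic reticulum with peptides that the transporter Tap1-Tap2 brings in and that tapasin (Tapbp) helps to place. MHC class II molecules are alpha-beta dimers that present peptides from the endosome to CD4 T cells. The invariant chain Cd74 guides them there, proteases such as cathepsin S trim it, and H2-DM exchanges its last fragment for peptide. In the small intestine class I is made by nearly all cells, and class II by dendritic cells, macrophages, B cells and, under interferon gamma, the epithelium, where the factor Ciita is needed for class II transcription.

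RNA was prepared from whole small intestines of 6 mice, each 40 days old and congenic on the black6 background, with 1 mouse per array. The 3 control mice were CFTR(+/+) and the 3 null mice were CFTR(-/-), so that the null mice lacked the epithelial chloride and bicarbonate channel whose loss causes cystic fibrosis. All 6 mice had received the liquid diet Peptamen since day 10, and each group held 2 males and 1 female (control replicate 3 and null replicate 2). The labels give no further treatment, housing or litter. The sample titles are unexplained codes, of which that of control replicate 2 starts differently from the rest and those of control replicate 1 and null replicate 3 share their first letters and digits. Whether these codes mark a batch was not tested.

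Values are array intensities in arbitrary units, with a 2%-trimmed mean of 500.3 on every array, and the number of mice limits their precision. The 3' to 5' ratio of the actin probe sets lay between 1.12 and 1.20 over the 6 arrays. Cftr itself read 801.6, 1017.5 and 1002.0 in the control mice against 325.9, 295.6 and 368.5 in the null mice. Epithelial markers were bright in all 6 mice (9 of 9 markers on the array passed the filter on low values), with a summed level of 79354 to 99065 in control and 62413 to 81490 in null mice. Without the brightest of them, Lgals4, the sums did not overlap, at 61211 to 75883 in control and 40582 to 59310 in null mice. These sums still held Fabp2, the marker with the largest fall, and sums without it were not taken. None of the 9 was called. Fabp2 was the 1 whose groups did not overlap, with means of 18085 in control and 7991 in null mice. Of all tested probe sets, 10.8% did not overlap and were lower in null. Fabp2 had the largest log2 change, -1.31, against -0.43 for Fabp1, -0.29 for Vil1, -0.24 for Cdh1, -0.23 for Epcam and -0.12 for Krt20. The changes of Cdx2 (0.36), Cdx1 (0.18) and Lgals4 (0.05) lay above 0. Since the RNA is that of a whole organ, fewer cells of a type and less RNA per cell cannot be told apart.

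The promoters of 5 members are shown with their matches to sequence elements through which class I and class II genes are known to be switched on. The last pair is shown because its genes had log2 changes of opposite sign, neither of them past the threshold. Each run is the 200 bases before the RefSeq start of the gene (GRCm38.p6), read 5′ to 3′ on the gene's strand. Capitals mark matches on either strand to CTGATTGG (a Y box, the site of NF-Y), to its core ATTGG (which overlaps it), to GGGATTCCC (an NF-kB site) and to TTTCACTTC (an interferon response element). B2m, H2-DMb1 and H2-DMb2 held only the core ATTGG.
H2-D1, chr17:35262894-35263093, plus strand: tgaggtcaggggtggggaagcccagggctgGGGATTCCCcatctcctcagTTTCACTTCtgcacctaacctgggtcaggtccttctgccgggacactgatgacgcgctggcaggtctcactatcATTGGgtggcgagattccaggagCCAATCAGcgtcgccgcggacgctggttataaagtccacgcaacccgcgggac
B2m, chr2:122147487-122147686, plus strand: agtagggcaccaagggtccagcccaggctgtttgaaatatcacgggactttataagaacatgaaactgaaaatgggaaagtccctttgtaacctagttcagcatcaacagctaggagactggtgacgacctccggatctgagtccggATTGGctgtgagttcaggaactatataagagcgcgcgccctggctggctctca
H2-Aa, chr17:34287824-34288023, minus strand: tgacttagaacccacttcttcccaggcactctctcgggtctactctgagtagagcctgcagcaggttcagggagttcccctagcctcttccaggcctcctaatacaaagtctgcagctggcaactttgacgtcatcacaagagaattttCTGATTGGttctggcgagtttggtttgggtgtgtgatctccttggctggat
H2-DMb1, chr17:34152991-34153190, plus strand: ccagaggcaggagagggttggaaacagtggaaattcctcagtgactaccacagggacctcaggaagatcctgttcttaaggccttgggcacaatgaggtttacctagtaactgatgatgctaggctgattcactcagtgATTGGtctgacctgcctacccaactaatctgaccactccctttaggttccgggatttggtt
H2-DMb2, chr17:34145049-34145248, plus strand: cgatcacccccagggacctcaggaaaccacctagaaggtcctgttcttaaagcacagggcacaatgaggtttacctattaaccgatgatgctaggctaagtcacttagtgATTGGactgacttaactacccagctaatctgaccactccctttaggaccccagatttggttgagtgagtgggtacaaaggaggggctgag

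Of all 32851 RefSeq promoters read in the same way, 3.54% held CTGATTGG, 29.3% its core ATTGG, 0.213% GGGATTCCC and 0.307% TTTCACTTC. Among the 28 member genes with a promoter in the table, 11 held CTGATTGG and 24 its core. GGGATTCCC was found in 3 of them (H2-D1, H2-K1 and H2-Q7), and TTTCACTTC in 6 (those 3, H2-M3, H2-Q10 and H2-Q4). A match describes these letters only and was not tested against the changes below.

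No member differed between null and control mice past the threshold. Of the 64 probe sets, 48 passed the filter on low values (an intensity above 109.7 in any 3 or more arrays out of the 6) and were tested with limma. At an adjusted p under 0.05, 0 of the 48 were higher and 0 lower in null, against a background of 1.13% higher and 1.87% lower among all 7601 tested probe sets (228 in all). The smallest adjusted p of a member was 0.0766. At an unadjusted p under 0.05 there were 7 lower and 0 higher, 14.6% against 8.17% of all tested probe sets for lower and 9.10% for higher. The same 7 were those whose 3 null values all lay below the 3 control values, 14.6% against a background of 10.8%. No member had all null values above control, where 13.1% of all tested probe sets did. The log2 change lay below 0 in 34 of 48 members (70.8%, against 45.7% of all tested). Its median over the members was -0.11, against 0.03 over all tested probe sets, with a range of -0.70 to 0.77. The 48 are not independent readings, since some share a gene and 9 carry the symbols of several genes. The 95% interval of the change lay within 2-fold either way for 40 of the 48 (83.3%, against 81.4% of all tested), and within 1.5-fold for 22 (45.8%, against 44.2%).

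**Figure D1:**
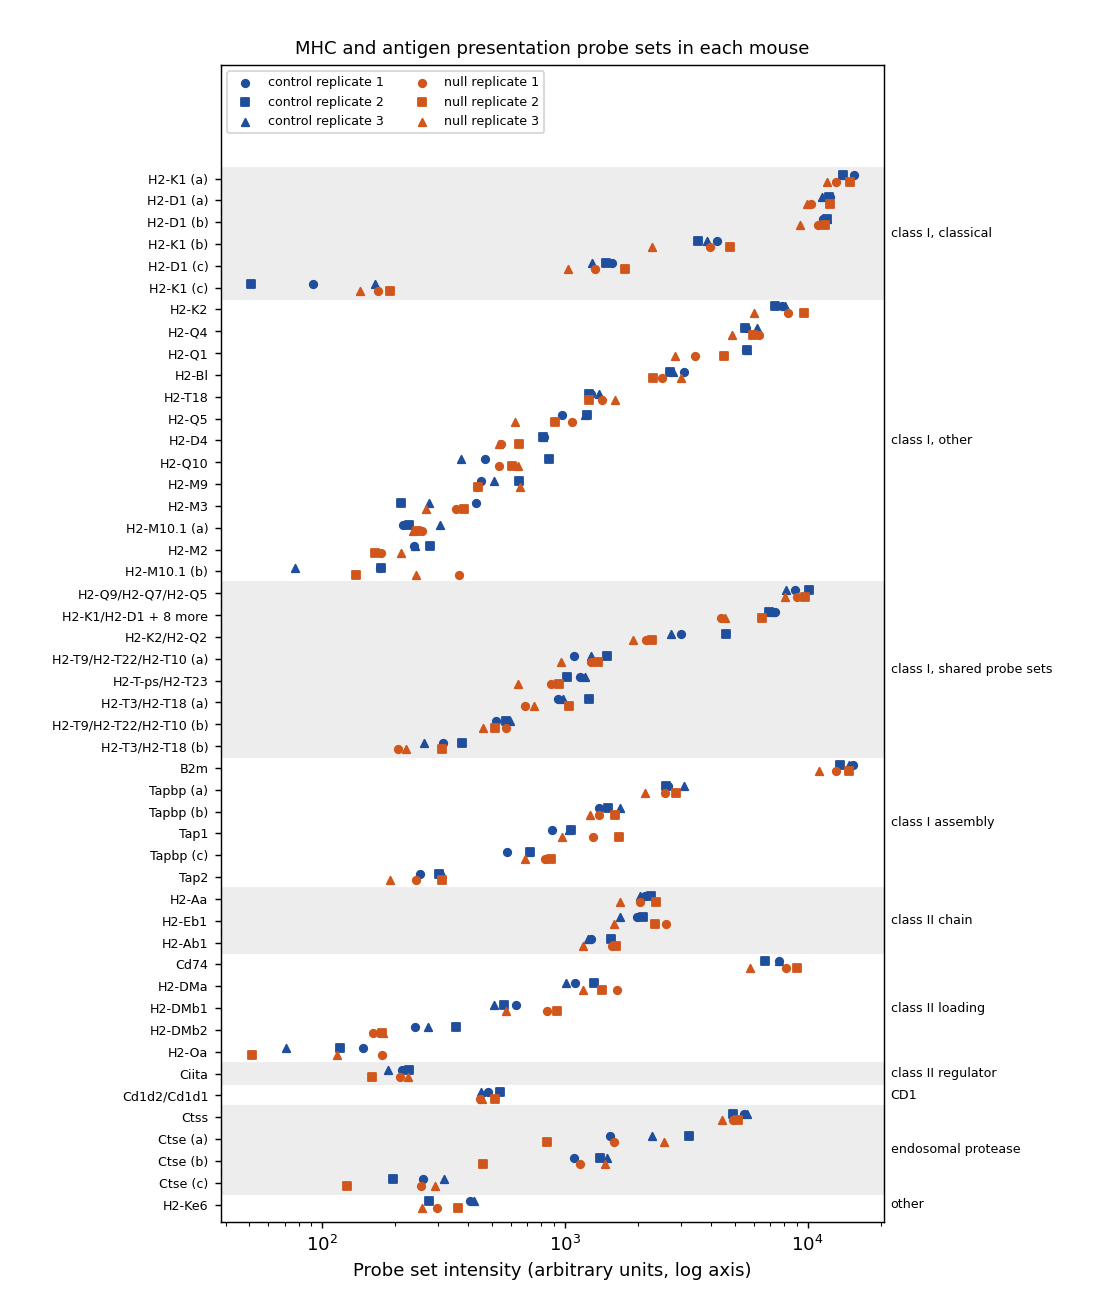
Intensity of the 48 tested probe sets in each of the 6 mice, grouped by role, in arbitrary units on a log axis. Blue symbols are control and orange symbols null mice, with 1 symbol shape per replicate. The classical class I chains, B2m and Cd74 are among the brightest, and for most members the orange and blue symbols overlap.

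The classical class I heavy chains were among the brightest members and overlapped between the groups. The brightest H2-K1 probe set read 15492.7, 14015.9 and 13789.0 in control and 13027.3, 14908.4 and 12019.3 in null mice. Its means were 14432 ± 925 and 13318 ± 1466 (SD, n = 3 each), a log2 change of -0.12 with a 95% interval of -0.39 to 0.15 (adjusted p = 0.652). Null replicate 2 stood among the controls, and null replicates 1 and 3 below them. The brightest H2-D1 probe set read 12359.6, 12216.7 and 11461.5 in control and 10305.0, 12310.4 and 9910.9 in null mice. Its log2 change was -0.15 (95% interval -0.43 to 0.12), and those of the other H2-D1 probe sets were -0.16 and -0.10. Here too null replicate 2 lay within or above the range of the controls. A second H2-K1 probe set had a log2 change of -0.13. A further, dim H2-K1 probe set read 91.5, 51.0 and 164.7 in control and 170.0, 190.3 and 143.2 in null mice, opposite in direction to the bright ones (0.77, interval -0.10 to 1.64). Its control mean lay under the filter level, so that no fold is given for it.

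Beta-2 microglobulin, the light chain shared by all class I molecules, overlapped between the groups as well. B2m read 15425.1, 13554.7 and 14741.2 in control and 13032.8, 14793.3 and 11086.0 in null mice. The log2 change was -0.18 (SE 0.13, 95% interval -0.48 to 0.13, adjusted p = 0.552), so that a fall to 0.717 of control or a rise to 1.09 of control both lay at the edge of what 3 mice per group allow. Its lowest value was again that of null replicate 3.

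Among the nonclassical class I genes and pseudogenes, 3 of 13 tested probe sets did not overlap between the groups, all of them lower in null (23.1%, against 10.8% of all tested probe sets for lower and 13.1% for higher). H2-Q1, a gene of the Q region, read 5587.6, 5646.7 and 5615.6 in control and 3448.3, 4503.7 and 2837.2 in null mice. The control values lay within a narrow band and every null value was well under it. The log2 change was -0.67 (SE 0.17, interval -1.05 to -0.28, 1.59-fold lower), with an adjusted p of 0.0855. The H2-D4 probe set read 822.3, 812.7 and 810.6 in control and 543.4, 645.0 and 537.0 in null mice. H2-D4 is listed by RefSeq as a transcribed pseudogene, and its control values spread as little as those of H2-Q1. Its log2 change was -0.50 (SE 0.12, interval -0.78 to -0.22) and its adjusted p, 0.0766, the smallest of all members. The names of the H2-Q1 and H2-D4 probe sets carry the letter f, which marks possible binding to related transcripts. Neither reading can be assigned to 1 gene alone. H2-M2, a gene of the M region, was dimmer, at 239.3, 278.1 and 240.4 in control and 174.6, 164.5 and 210.5 in null mice. Its log2 change was -0.44 (interval -0.83 to -0.06, adjusted p = 0.227).

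The other Q, T and M region genes lay on both sides of 0. H2-Q4 was bright, with means of 5748 in control and 5717 in null mice and a log2 change of -0.01 (interval -0.31 to 0.28). H2-T18 read 1308 and 1427 on average, a change of 0.12 (interval -0.18 to 0.41). The probe sets it shares with H2-T3 changed by -0.36 and -0.37. H2-K2, listed as a transcribed pseudogene, changed by 0.02 (interval -0.38 to 0.41). The values of H2-Q4, H2-T18 and H2-K2 overlapped between the groups. H2-Q5 had a log2 change of -0.42, and its interval of -0.90 to 0.06 still included 0. The remaining probe sets of this group were H2-Bl (-0.14), H2-M9 (-0.08), H2-M3 (0.17), H2-Q10 (0.15) and the pair for H2-M10.1 (0.00 and 0.74).

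Of the 10 probe sets shared by several class I genes, 8 were tested and all 8 had a log2 change below 0, with a median of -0.37. The probe set for H2-K2 and H2-Q2 read 3013.2, 4590.6 and 2728.2 in control and 2156.1, 2287.8 and 1904.6 in null mice (log2 change -0.67, interval -1.12 to -0.21, adjusted p = 0.136). Control replicate 2 stood high there, and the null values lay close together. A probe set with 10 symbols, H2-K1 and H2-D1 among them, read 7364.7, 6954.3 and 7111.8 in control and 4381.4, 6487.7 and 4582.9 in null mice. Its log2 change of -0.49 (interval -0.86 to -0.13, adjusted p = 0.162) was accompanied by only -0.12 and -0.15 in the brightest probe sets with the single symbol H2-K1 or H2-D1. The probe set for H2-T-ps and H2-T23, the latter encoding Qa-1 that presents to NK receptors, read 1158.9, 1023.5 and 1212.1 against 874.1, 948.9 and 640.6 (log2 change -0.47, adjusted p = 0.197). The probe set for H2-Q9, H2-Q7 and H2-Q5 was the exception in size, at -0.01 (interval -0.31 to 0.28), and both probe sets for H2-T3 and H2-T18 stood at -0.36 and -0.37. The pair for H2-T9, H2-T22 and H2-T10 changed by -0.10 and -0.13. Each of these probe sets carries the symbols of several genes, so its readings cannot be assigned to 1 gene. In the names of 29 of the 48 tested probe sets a letter stands before the ending _at. The letters f, g and s mark probes that may bind more than 1 transcript, whereas i (H2-DMb2 and a Ctse probe set) does not. The brightest H2-K1 and H2-D1 probe sets and those of H2-Q1 and H2-D4 carry f, so each may read related transcripts too. Of these 29, 5 did not overlap between groups (17.2%), and neither did 2 of the other 19 (10.5%), all lower in null, against 10.8% of all tested probe sets.

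**Figure D2:**
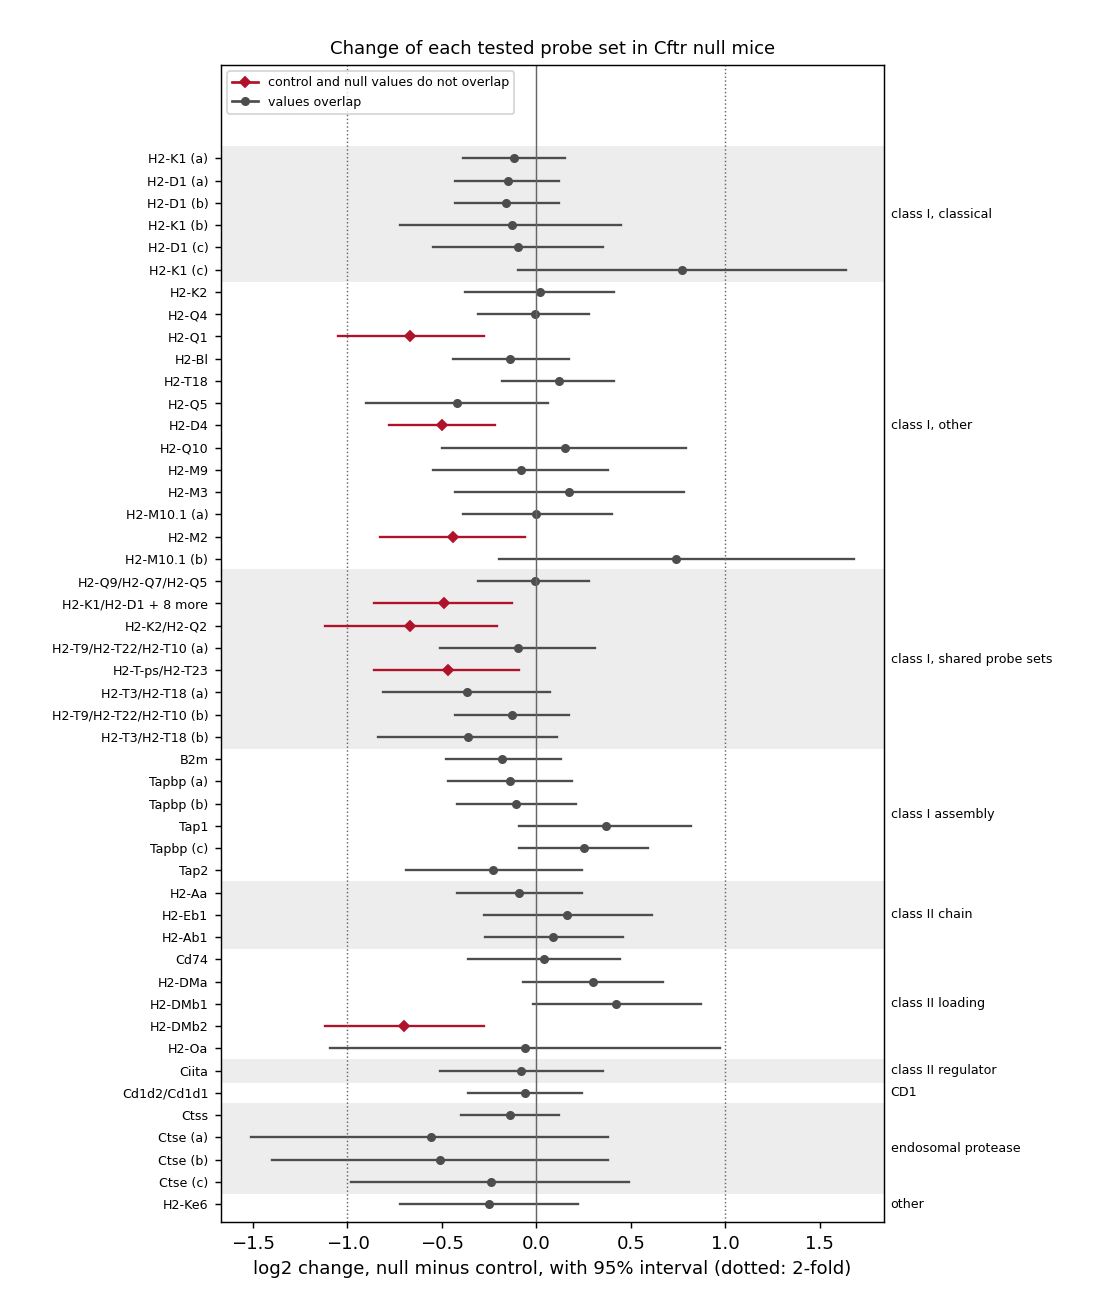
Log2 change, null minus control, of the 48 tested probe sets with its 95% interval, grouped by role. Dotted lines mark 2-fold. Red diamonds are the 7 probe sets whose control and null values do not overlap, all to the left of 0 and 6 of them in class I, and grey circles are the other 41.

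Of the genes that assemble and load class I molecules, none passed the test, and 4 of the 6 tested probe sets had a log2 change below 0. Tap1, a chain of the peptide transporter, read 888.0, 1058.7 and 1042.0 in control and 1307.1, 1664.6 and 974.3 in null mice. Null replicates 1 and 2 stood above all controls and null replicate 3 among them, for a log2 change of 0.37 (interval -0.09 to 0.82, adjusted p = 0.388). Tap2, its partner chain, was dimmer, with means of 288.4 and 248.7 and a change of -0.23 (interval -0.69 to 0.24). Tapasin had 3 probe sets, with changes of -0.14, -0.11 and 0.25, all overlapping. The intervals of all 6 tested assembly probe sets lay within 2-fold.

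The 3 class II chains that were bright overlapped between the groups. H2-Aa, the alpha chain of I-A, read 2131.7, 2270.3 and 2044.1 in control and 2042.3, 2378.4 and 1685.8 in null mice (log2 change -0.09, interval -0.42 to 0.24, adjusted p = 0.796). H2-Ab1, its beta chain, read 1284.9, 1546.7 and 1245.2 against 1569.7, 1624.3 and 1182.4 (0.09, interval -0.27 to 0.46, adjusted p = 0.808). H2-Eb1, the beta chain of I-E, read 1976.9, 2088.7 and 1687.6 against 2615.2, 2340.3 and 1599.5 (0.16, interval -0.28 to 0.61, adjusted p = 0.707). In all 3 the lowest of the 6 mice was null replicate 3 and the highest was another null mouse, so that the null group spread more widely than control on both sides. The alpha chain of I-E, H2-Ea, read only 9.1 to 53.5 over the 6 mice. Mice of the H2-b haplotype, which black6 strains carry, have no functional H2-Ea, and RefSeq lists it as a transcribed pseudogene. H2-Eb2 and H2-Pa were dim as well.

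Cd74, the invariant chain, was the brightest class II member, at 7651.7, 6675.0 and 7613.3 in control and 8126.8, 8999.4 and 5792.5 in null mice. The means were 7313 ± 553 and 7640 ± 1658 (SD, n = 3 each), a log2 change of 0.04 with an interval of -0.36 to 0.44 (adjusted p = 0.929). Null replicates 1 and 2 were above all controls and null replicate 3 below all of them. Ciita, the class II transactivator, lay between 186.7 and 228.2 in control and between 161.2 and 226.6 in null mice (log2 change -0.08, interval -0.51 to 0.35).

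Among the peptide exchange factors, none of the H2-DM genes passed the test. H2-DMa, the alpha chain, read 1101.2, 1318.0 and 1009.0 in control and 1643.4, 1419.5 and 1188.1 in null mice (log2 change 0.30, interval -0.07 to 0.67, adjusted p = 0.382). H2-DMb1, a beta chain gene, read 631.4, 562.6 and 512.6 against 846.9, 924.2 and 570.1 (0.42, interval -0.02 to 0.87, adjusted p = 0.314). In both, 2 null mice stood above all controls and null replicate 3 stood among them. H2-DMb2, the neighbouring beta chain gene, read 242.1, 355.3 and 273.6 in control and 162.1, 175.8 and 178.9 in null mice. All 3 null values were below all controls, and the log2 change of -0.70 (SE 0.18, interval -1.12 to -0.28, 1.62-fold lower, adjusted p = 0.0927) was the lowest of the members. The changes of H2-DMb1 and H2-DMb2 were thus 1.12 apart on the log2 scale, a description of a pair chosen after its values were seen.

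The promoters of H2-DMb1 and H2-DMb2 printed above are related. Over the whole RefSeq windows of 300 bases, which extend past the bases printed, 208 of 246 aligned bases (84.6%) were the same. In the printed bases each held ATTGG, 61 and 90 bases before the start. The name of the H2-DMb1 probe set carries the letter g, which marks possible binding to related transcripts. That of the H2-DMb2 probe set carries the letter i, which is not such a mark. A further probe set assigned to both genes was dim (20.8 to 158.3). Reads of such related genes by an array are uncertain, and the part of cross-binding in these values was not tested.

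H2-DO restrains H2-DM in B cells. Its alpha chain gene H2-Oa was near the filter level and imprecise, with a log2 change of -0.06 and an interval of -1.09 to 0.97. Its beta chain gene H2-Ob was too dim to be tested, at 83.5, 109.3 and 73.7 in control and 13.2, 16.5 and 49.4 in null mice, without overlap. The summed B cell markers other than Ighm lay between 898 and 1395 in control and between 998 and 1274 in null mice.

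**Figure D3:**
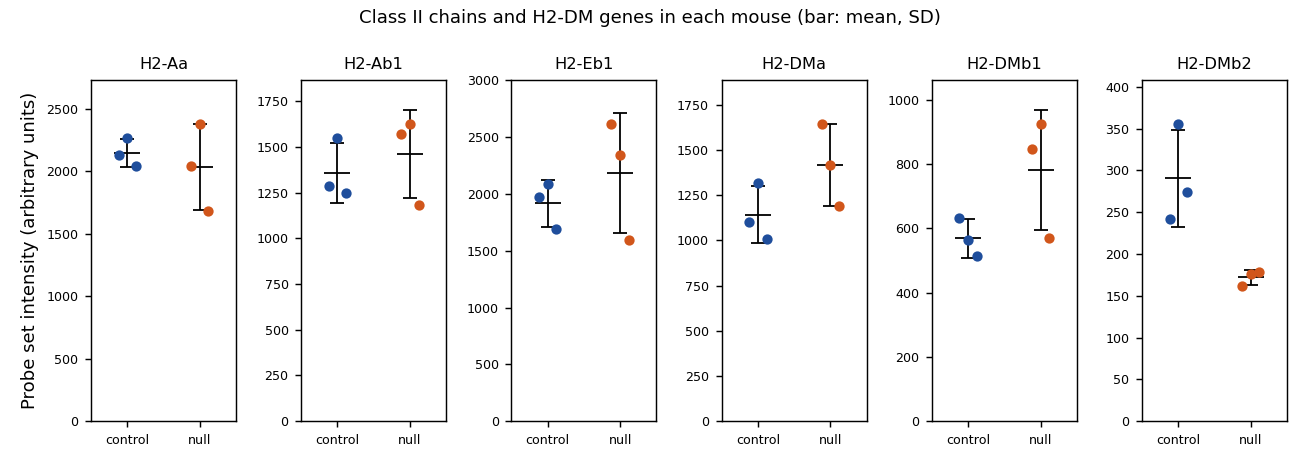
Intensity of the bright class II chains and of the H2-DM genes in each mouse, in arbitrary units on axes that start at 0, with the mean and SD of each group (n = 3). Points are mice, in replicate order from left to right within a group. The H2-DMb2 points of null mice all lie under 180, below every control, and in H2-Aa, H2-Ab1 and H2-Eb1 the rightmost null point is the lowest.

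The endosomal proteases overlapped between the groups. Cathepsin S (Ctss), which trims the invariant chain, read 5488.6, 4921.7 and 5598.9 in control and 4912.3, 5176.0 and 4423.0 in null mice (log2 change -0.14, interval -0.40 to 0.12). Cathepsin E (Ctse) had 3 probe sets with changes of -0.51, -0.24 and -0.56, all with intervals that included 0. In each of them null replicate 2 was the lowest of the 6 mice, at 460.6, 126.6 and 846.6, while the other null mice stood within or near the control range. The lipid-presenting CD1 molecules gave 1 tested probe set, for Cd1d2 and Cd1d1, at 484.0, 541.9 and 449.8 in control and 448.0, 516.3 and 453.6 in null mice (log2 change -0.06). A second one, for Cd1d1 alone, was too dim to be tested, at 126.0, 76.1 and 77.2 against 61.3, 71.1 and 50.0. H2-Ke6 changed by -0.25 (interval -0.72 to 0.22).

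The 16 members too dim to be tested held values from 7.0 to 158.3, with a median of 50.4. In 3 of them the groups did not overlap, all lower in null, namely H2-Ob, Cd1d1 and an H2-D4 probe set whose values were at most 28.4. Of all 4821 probe sets too dim to be tested, 5.31% did not overlap and were lower in null, and 6.26% were higher.

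The mice of the null group differed among themselves across the members. Null replicate 3 had the lowest value of the 6 mice in 25 of the 48 tested members (52.1%), where it was the lowest in 18.1% of all tested probe sets. Null replicate 1 was the lowest in 6 members and null replicate 2 in 7, against 15.8% and 11.8% of all tested probe sets. Control replicates 1, 2 and 3 were the lowest in 3, 3 and 4 members, against 16.0%, 23.0% and 15.4%. The median deviation of the class I heavy chains from their control mean was -0.28 in null replicate 3, against -0.10 and -0.01 in null replicates 1 and 2. For the 8 class II chains and loading genes it was -0.22 in null replicate 3, against 0.33 and 0.28 in the others. Over all tested probe sets the same deviation was 0.04 in null replicate 3. Since every array had the same trimmed mean, this median cannot show whether its array as a whole read low.

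The medians of these groups moved when single mice were left out. Over the 27 tested class I heavy chain probe sets 20 changes lay below 0 and 7 above, with a median of -0.13, which became -0.05 without null replicate 3 and -0.20 without null replicate 2. Over the 8 class II probe sets 3 changes lay below 0 and 5 above, with a median of 0.07, which became 0.23 without null replicate 3 and 0.00 without null replicate 1. Without null replicate 2, the female null mouse, 2 class I probe sets passed the threshold as lower in null. These were H2-Q1 (log2 change -0.84, adjusted p = 0.0315) and the probe set with 10 symbols (-0.67, adjusted p = 0.0436).

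**Figure D4:**
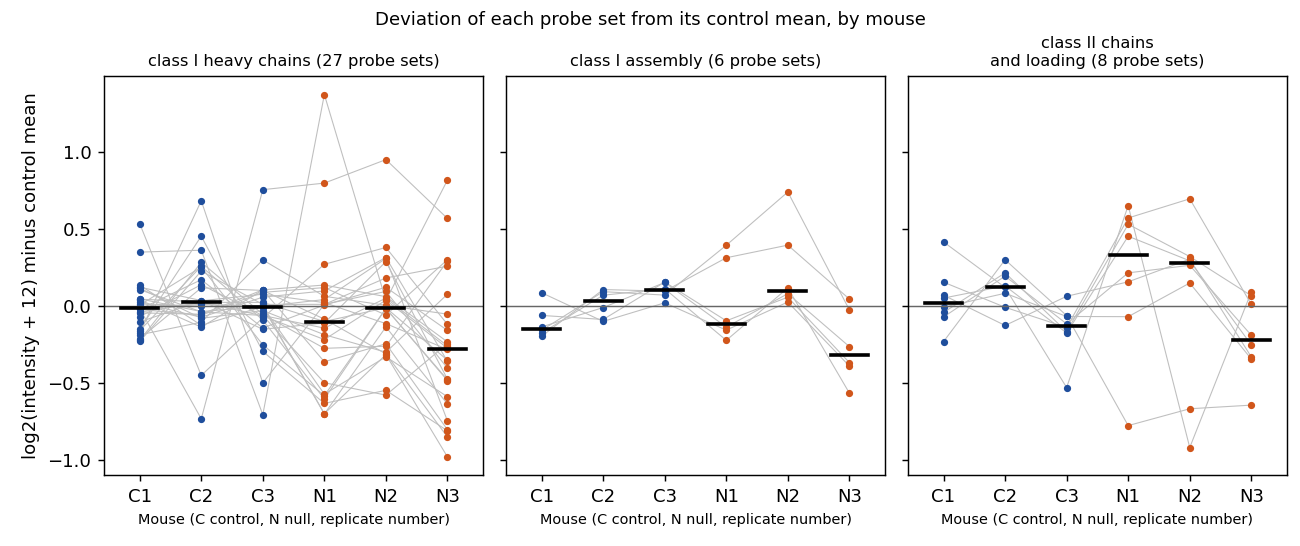
Deviation of each probe set from its control mean, on the log2(intensity + 12) scale, in the 3 control (C) and 3 null (N) mice. Thin lines join a probe set and black bars are medians. The bar of null replicate 3 lies below 0 in all 3 panels, at -0.28 for class I and -0.22 for class II, whereas those of null replicates 1 and 2 lie above 0 for class II.

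Values of other cell types are given beside these levels. The epithelial (62413) and the T and NK cell (366) marker sums were also lowest in null replicate 3. Those of dendritic cells and macrophages, B cells and general leukocytes were lowest in other mice. The summed dendritic cell and macrophage markers (11 of 15 on the array passed the filter, 1 of them called lower) lay between 9723 and 12187 in control and between 8441 and 8635 in null mice. That difference lay in lysozyme Lyz2, since without it the sums were 4445 to 4745 and 4738 to 4976. Cd14 (log2 change 0.46) and Cd68 (0.25) had all null values above control. Lyz2 (-0.82, the one called), Cx3cr1 (-0.49) and Fcgr1 (-0.28) had them below. Of all tested probe sets, 13.1% and 10.8% did so, and 1.87% were called lower. B cell markers (6 of 8 passed the filter, 0 called) summed to 17862 to 18722 in control and 19762 to 22750 in null mice, most of it Ighm. General leukocyte markers (5 of 5 passed, 0 called) summed to 2412 to 2627 in control and 2627 to 2939 in null mice, and without the brightest, Laptm5, to 1516 to 1656 and 1740 to 1901. Their log2 changes went both ways, with Cd53 (0.67), Cd52 (0.26) and Laptm5 (0.07) above 0 and Ptprc (-0.63) and Coro1a (-0.09) below. Of the 9 T and NK cell markers on the array only Cd4 passed the filter and 0 were called, and the sums were 544 to 881 in control and 366 to 607 in null mice. Among the 8 dim ones Klrd1 (105.5, 134.3 and 97.8 in control against 64.7, 71.3 and 28.1 in null) and Cd8a (64.7, 100.5 and 34.6 against 18.7, 22.3 and 20.4) did not overlap and were lower in null. Of all probe sets too dim to be tested, 5.31% did so. The means of Thy1 (19.5 in control, 40.5 in null), Cd2 (16.1, 19.5) and Cd3d (51.5, 53.3) were higher in null. Those of Cd3e (117.6, 55.7), Cd3g (40.4, 25) and Cd8b1 (8.93, 6.7) were lower. Of the CD3 chains, Cd3d and Cd3g stayed at or under 74.9, and Cd3e reached 211.8 in control replicate 2 with at most 84.7 in the other mice. No marker of these lists was listed at 0. Their part in the levels of the MHC genes was not tested.

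Other genes of antigen processing, from a list of 37 of which 27 were on the array and 20 were tested, gave 0 calls in either direction. Of the 20, 12 changes lay above 0 and 8 below, with a median of 0.05 and a range of -0.28 to 0.44. The 4 tested immunoproteasome genes, whose products cut peptides for class I, all had changes above 0, namely Psmb10 (0.39), Psmb9 (0.27), Psmb8 (0.15) and Psme1 (0.04). Psmb9 read 1304.0, 1215.0 and 1403.2 in control and 1600.0, 2236.9 and 1084.0 in null mice. As in Tap1, null replicate 2 was the highest of all mice and null replicate 3 the lowest of the null mice. Irf1, an interferon-induced activator of class I genes, was the 1 gene of the list with all null values above control, at 1769.4, 1958.8 and 1784.1 against 2720.2, 2716.4 and 2084.8. Its log2 change was 0.44 (SE 0.14, interval 0.12 to 0.75) with an adjusted p of 0.155.

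In the same list 3 of the 20 tested genes had all null values below control and 1 had them above, where 10.8% and 13.1% of all tested probe sets did. Ifi30, a thiol reductase that opens disulfide bonds of endosomal antigens, read 2235.9, 2234.1 and 2046.8 against 1800.4, 1842.8 and 1700.3 (log2 change -0.28, adjusted p = 0.22). Ctsh, an endosomal aminopeptidase, changed by -0.20 (adjusted p = 0.415). Rfxank, a subunit of the RFX complex that binds MHC promoters, changed by -0.24 (adjusted p = 0.372). Of the costimulatory genes, 5 were on the array and 0 were bright enough to be tested.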

How the data were processed

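The deposited values were probe set intensities on a linear scale, per the file headers and values, from 1-colour Affymetrix arrays. The software, background correction and scaling by the authors are not given in the sources used here. Of 12488 probe sets, 66 controls (AFFX) were set aside. Values were turned into log2(value + 12), where 12 is the 10th percentile, so fold changes of dim genes are understated. Probe sets above 109.7 (the 40th percentile) in at least 3 of 6 arrays were tested, 7601 in all, with limma 3.58.1 in R 4.3.3 (lmFit, eBayes with a variance trend), two-sided, Benjamini-Hochberg adjusted over all of them, threshold 0.05. On simulated data of 7601 probe sets, 90.6% of 4-fold changes were recovered. Smaller changes, such as those of the members, were not simulated, so this rate does not apply to them. Intervals are at 95% from the moderated statistic.

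All 3 control and 3 null mice entered the fit; replicates were numbered in accession order and pair no mice. Each array is a separate mouse, per the labels. Members given in full were those without overlap and the brightest of each role; the dim H2-K1 probe set, Tap1, Psmb9 and other members given by mouse were added after they were seen. Context and marker lists used the brightest probe set per gene. Promoters came from RefSeq (GRCm38.p6), read with Python 3.11.15. The members and lists were chosen with earlier results of these data known. Alternatives were 2 other scalings, pseudocounts of 3 and 48, no filter or one at 288.7, sex as a covariate, males only, 2 other variance settings, and leaving out each mouse.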

Additional observations from a re-analysis of the deposited data

How the results depend on the processing

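Besides the setting reported, 16 others were run. The number of member probe sets called was 0 higher and 0 lower in all of them except without null replicate 2, so that leaving out each mouse gave 0 to 2 lower. The other antigen processing genes gave 0 calls in every setting. The smallest adjusted p of a member ranged from 0.0315 (without null replicate 2) to 0.219 (without null replicate 1). Of 24 named probe sets, 17 kept the sign of their change in every setting. The sign turned with quantile normalization for H2-K2 (-0.02) and with males only for H2-K2 (-0.11), Cd74 (-0.06) and H2-Ab1 (-0.05). Leaving out each mouse gave -0.12 to 0.02 for the probe set of Cd1d2 and Cd1d1, -0.13 to 0.20 for H2-K2, -0.08 to 0.07 for that of H2-Q9, H2-Q7 and H2-Q5, -0.21 to 0.04 for H2-Aa, -0.09 to 0.23 for Cd74 and -0.17 to 0.06 for Ciita. The cause was not tested. The class II median was -0.02 in males only. Over all tested probe sets 228 were called, against 141 without the variance trend, 135 in males only, 76 without control replicate 1, 52 without null replicate 1 and 84 without null replicate 3. No paired analysis was possible because the labels carry no replicate numbers. Dim probe sets limit what can be read for H2-Oa, H2-Ob, H2-Eb2 and Cd1d1. With 3 mice per group, the interval reached past a 1.5-fold change for 26 of the 48 tested members.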
